A study of Arachis hypogaea with 15 samples.

Results

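Peanut (Arachis hypogaea) carries 6 annotated genes for UNIFOLIATA and UNUSUAL FLORAL ORGANS (UFO), among 59878 genes in the deposited expression table. They were taken as every gene whose product name contains UNIFOLIATA, floricaula or UNUSUAL FLORAL ORGANS, with no repeated entry to drop. Of these, 4 are UNIFOLIATA genes, which the table also assigns to the LFY family of transcription factors, and 2 are UFO genes. Cultivated peanut is an allotetraploid, so each gene is present as an A copy, on chromosomes 1 to 10, and a B copy, on chromosomes 11 to 20.

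RNA sequencing covered 5 groups of 3 libraries, which the design text calls biological replicates, all from plants 40 days old grown at 22 °C and 70% humidity with 16 h of light. Wild-type plants gave petioles, lateral leaflets, terminal leaflets and shoot apices, and a mutant described as having pentafoliate defects gave shoot apices. The labels name neither the mutated gene, nor the cultivar, nor how many plants went into a library, so background and harvest cannot be told apart from the mutation. Levels are FPKM, fragments scaled to transcript length and sequencing depth, and depth was estimated from the steps between low values at 17.4 to 18.6 M fragments a library.

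UNIFOLIATA is the pea name of the LEAFY gene of Arabidopsis and FLORICAULA of snapdragon, a plant-specific transcription factor that sets the identity of floral meristems. In pea, loss of UNIFOLIATA also reduces the number of leaflets, and its ortholog in Medicago truncatula has a like role in the compound leaf. UFO is an F-box protein that joins the SCF ubiquitin ligase through SKP1 and cullin-1 and acts as a partner of LEAFY; its pea ortholog is STAMINA PISTILLOIDA, known for its role in flowers and leaves.

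The 6 genes form 3 pairs of copies, with coordinates as in the deposited table, whose identifiers are those of the first Tifrunner assembly. The UNIFOLIATA-like gene arahy.31D2RV.1 lies on chromosome 3 (A copy, 117031167 to 117032832, minus strand). Its B partner arahy.33WSUR.2 lies on chromosome 13 (119490348 to 119493090, minus strand). The other UNIFOLIATA pair is arahy.P6GRAY.1 on chromosome 8 (A copy, 49710527 to 49714375, plus strand) and arahy.4TKD14.1 on chromosome 18 (B copy, 133680104 to 133683693, plus strand). The UFO pair is arahy.N7CMLX.1 on chromosome 3 (A copy, 139802111 to 139803908, minus strand) and arahy.GTY4NG.1 on chromosome 13 (B copy, 142758434 to 142760367, minus strand). The longest transcripts were 1497 to 1659 bases for the UNIFOLIATA genes and 1719 and 1758 bases for the UFO genes.

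The annotated genes around the members shared product names between copies, for UFO on the downstream side only (4 genes on each side, looked up after the expression values were seen). A BONZAI 1 gene, an IRX10L xylosyltransferase gene and a gene named either phosphatidylinositol transfer protein 3-like or random slug protein 5 stood beside all 4 UNIFOLIATA genes. On chromosomes 3 and 13, BONZAI 1 was the next gene at 4.1 and 3.9 kb downstream, and the lipid transfer gene the next at 4.8 and 2.4 kb upstream. On chromosomes 8 and 18, an ERF114 gene stood between UNIFOLIATA and BONZAI 1, which was 62.6 and 33.6 kb downstream. Both UFO genes had a methionine sulfoxide reductase A5 gene at 9.9 and 18.1 kb downstream, followed by cellulose synthase A 4 and a lysM GPI-anchored protein gene. Upstream, the UFO copies shared no named product.

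All 6 members were transcribed in the shoot apex and were near or at 0 in the petiole and the leaflets. In the wild-type apex the A copy arahy.31D2RV.1 stood highest, at 4.77, 4.96 and 6.83 FPKM in the 3 libraries. Its B partner arahy.33WSUR.2 stood at 3.13, 3.54 and 3.74 FPKM. These levels did not overlap each other or those of the other 4 members.

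The chromosome 8 copy arahy.P6GRAY.1 stood at 2.80, 2.49 and 2.23 FPKM in the wild-type apex, and the chromosome 18 copy arahy.4TKD14.1 at 2.70, 1.68 and 3.02. Of the UFO genes, arahy.N7CMLX.1 stood at 2.23, 1.64 and 2.91 FPKM and arahy.GTY4NG.1 at 2.07, 1.90 and 2.04. The order of the means was arahy.31D2RV.1 (5.52 ± 1.14, SD, n = 3), arahy.33WSUR.2 (3.47 ± 0.311), arahy.P6GRAY.1 (2.51 ± 0.285), arahy.4TKD14.1 (2.47 ± 0.700), arahy.N7CMLX.1 (2.26 ± 0.636) and arahy.GTY4NG.1 (2.003 ± 0.0907). From arahy.P6GRAY.1 on, each overlapped its neighbour in that order. All were in the middle of the range of expressed genes, at the 43.4th to 64.9th percentile of genes above 0 in the wild-type apex.

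Summed over the 4 genes, UNIFOLIATA reached 13.4, 12.67 and 15.82 FPKM in the wild-type apex, and the UFO pair 4.3, 3.54 and 4.95 FPKM. The chromosome 3 and 13 pair gave 59.0, 67.1 and 66.8% of that UNIFOLIATA sum. The UFO sum was 0.321, 0.279 and 0.313 of the UNIFOLIATA sum in the same libraries.

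**Figure D1:**
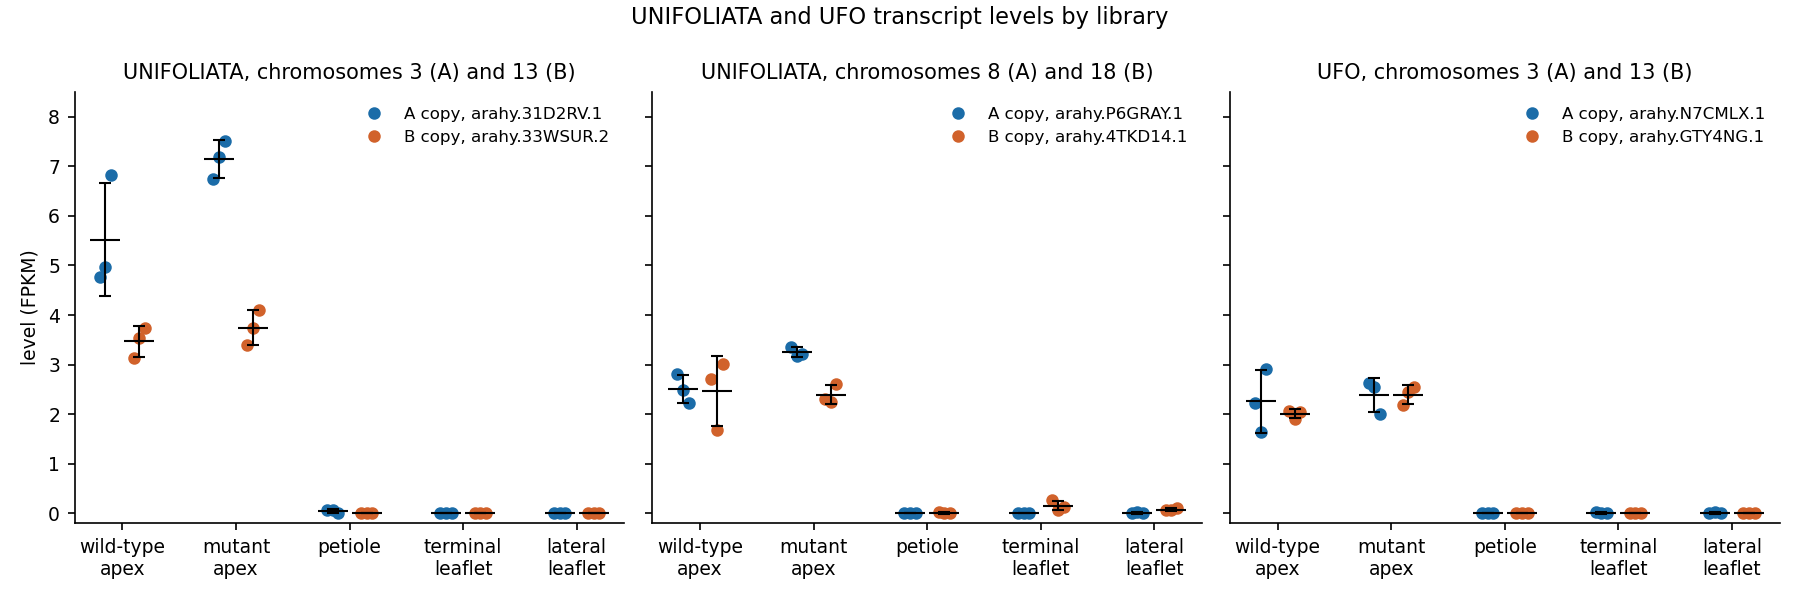
Points are FPKM in each library, for the 5 groups on the horizontal axis and the 3 gene pairs in the panels, with A copies in blue and B copies in orange; black bars are the mean and SD of 3 libraries. All 36 apex values lie between 1.64 and 7.52 FPKM, and no petiole or leaflet value exceeds 0.26.

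Outside the apex, 42 of 54 member values were listed at 0. The B copies arahy.33WSUR.2 and arahy.GTY4NG.1 were listed at 0 in all 9 petiole and leaflet libraries. At the estimated depth, 3 fragments in a library correspond to 0.092 to 0.115 FPKM for these transcripts. The values listed below that rest on fewer fragments, and a value of 0 allows a level of up to about this size. In these bulk tissues, fewer cells of a type and less RNA per cell cannot be told apart.

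The chromosome 18 copy arahy.4TKD14.1 was above 0 in all 6 leaflet libraries, at 0.26, 0.07 and 0.13 FPKM in the terminal and 0.06, 0.06 and 0.10 in the lateral leaflet. The highest of these is about 7.5 fragments, and most are under 3. In the petiole it was listed at 0.03, 0 and 0 FPKM. The chromosome 3 copy arahy.31D2RV.1 was listed at 0.07, 0.07 and 0 FPKM in the petiole and at 0 in all 6 leaflet libraries. All 6 leaflet values of arahy.4TKD14.1 thus lay above its highest petiole value, 0.03 FPKM, though they rest on few fragments. For arahy.31D2RV.1 no order between petiole and leaflets can be read at such counts.

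Against the mean of both leaflets, all 6 members were higher in the wild-type apex (limma on log2(FPKM + 1), called at an adjusted p under 0.05 over 39031 genes). Of all genes tested, 79.6% were called in that comparison and 35.3% were higher in the apex. The difference was 2.69 (SE 0.088, adjusted p = 4.44e-13) for arahy.31D2RV.1, 2.16 for arahy.33WSUR.2 and 1.80 for arahy.P6GRAY.1. It was 1.67 for arahy.N7CMLX.1, 1.62 for arahy.4TKD14.1 and 1.59 for arahy.GTY4NG.1. Each member passed the filter on low values only through its apex libraries, so a difference there was fixed by the filter, and these values describe its size on a scale that understates the change of low genes. Against the petiole the differences ran from 1.59 to 2.63, all called, where 54.7% of genes were called and 27.5% were higher in the apex.

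Between terminal and lateral leaflets 0 of 6 members were called by limma, against 13.1% of all genes, and 0 had an unadjusted p under 0.05. The largest difference was that of arahy.4TKD14.1, 0.10 (95% interval -0.17 to 0.37, adjusted p = 0.68). Between petiole and leaflets 0 of 6 were called, against 74.8% of all genes, again with 0 at an unadjusted p under 0.05. With values near or at 0 in these tissues the members could hardly be called on this scale. Neither count of 0 can therefore be read against the share of all genes. Between petiole and leaflets arahy.4TKD14.1 stood at -0.14 (adjusted p = 0.261) and arahy.31D2RV.1 at 0.06 (0.515). With a pseudocount of 0.1, which widens differences near 0, both were called, arahy.4TKD14.1 lower in the petiole (-0.90, adjusted p = 0.00711) and arahy.31D2RV.1 higher (0.51, 0.0425). For arahy.4TKD14.1, the authors' deposited table gives a petiole to terminal leaflet log2 ratio of -3.88 with a q-value of 0.000121 and a petiole to lateral leaflet log2 ratio of -2.86 with 0.00932. The calls with a pseudocount of 0.1 and these ratios rest on few fragments. In the petiole no library exceeded about 0.9 fragments for arahy.4TKD14.1 or about 2.0 for arahy.31D2RV.1, so their sizes are uncertain.

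The apex comparison concerns the tissue in which leaves arise, in plants with and without the mutation. In the mutant apex both UNIFOLIATA A copies were called higher than in the wild type, and no B copy or UFO gene passed the test. The change of the A copies did not differ from that of their B partners by an amount that passed a test. The chromosome 3 copy arahy.31D2RV.1 stood at 6.74, 7.19 and 7.52 FPKM (7.15 ± 0.392, n = 3), or 1.295 times the wild-type mean. The highest wild-type library, 6.83, fell inside that range. Its log2 difference was 0.34 (SE 0.101, adjusted p = 0.0188).

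The chromosome 8 copy arahy.P6GRAY.1 stood at 3.36, 3.18 and 3.22 FPKM (3.25 ± 0.0945), or 1.298 times the wild-type mean, with no overlap between the groups. Its log2 difference was 0.28 (SE 0.076, adjusted p = 0.0105). The count of 2 of 6 called is close to the share of all genes called, 35.6%, so it does not set the members apart. Of all genes 23.7% were called higher, A genes (23.3%) about as often as B genes (24.2%). The median change of all genes was 0.07.

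Neither B partner changed by an amount the test could separate from 0. In the mutant apex arahy.33WSUR.2 stood at 3.40, 3.73 and 4.11 FPKM (3.75 ± 0.355), overlapping the wild type, with a log2 difference of 0.09 (95% interval -0.08 to 0.26, adjusted p = 0.436). The chromosome 18 copy arahy.4TKD14.1 stood at 2.31, 2.25 and 2.61 FPKM, inside the wild-type range, with a difference of -0.01 (-0.28 to 0.26, adjusted p = 0.952).

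The UFO A copy arahy.N7CMLX.1 stood at 2.63, 2.55 and 2.0 FPKM in the mutant apex, inside the wild-type range, with a log2 difference of 0.07 (95% interval -0.19 to 0.33, adjusted p = 0.687). The UFO B copy arahy.GTY4NG.1 stood at 2.18, 2.44 and 2.55 FPKM, above all 3 wild-type libraries, but did not pass the adjusted test (0.17, interval 0.02 to 0.33, adjusted p = 0.0807). The UFO sum was 4.81, 4.99 and 4.55 FPKM in the mutant and overlapped the wild type. The UNIFOLIATA sum was 15.81, 16.35 and 17.46 FPKM, or 1.18 times the wild-type mean, with the lowest mutant library just under the highest wild-type one.

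In the authors' deposited table the mutant to wild-type log2 ratios were 0.37 for arahy.31D2RV.1 (q-value 5.8e-05) and 0.38 for arahy.P6GRAY.1 (0.00359). The same deposited table gives 0.26 for arahy.GTY4NG.1 (0.0605), 0.11 for arahy.33WSUR.2 (0.236), 0.08 for arahy.N7CMLX.1 (0.328) and -0.05 for arahy.4TKD14.1 (0.397).

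The spread in the limma fit comes from all 15 libraries, 9 of which are at or near 0 for these genes. Fitted on the 6 apex libraries alone, arahy.P6GRAY.1 kept an adjusted p of 0.0385 and arahy.31D2RV.1 missed the threshold at 0.0546, and with a pseudocount of 0.1 neither passed (0.261 and 0.252). Under quantile normalization arahy.P6GRAY.1 stayed called (adjusted p = 0.0442) and arahy.31D2RV.1 did not (0.0589). The call of arahy.31D2RV.1 was also lost without mutant replicate 2 (adjusted p = 0.0503) or 3 (0.0665) or wild-type replicate 1 (0.0897) or 2 (0.0805), and that of arahy.P6GRAY.1 without wild-type replicate 3 (0.0528).

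**Figure D2:**
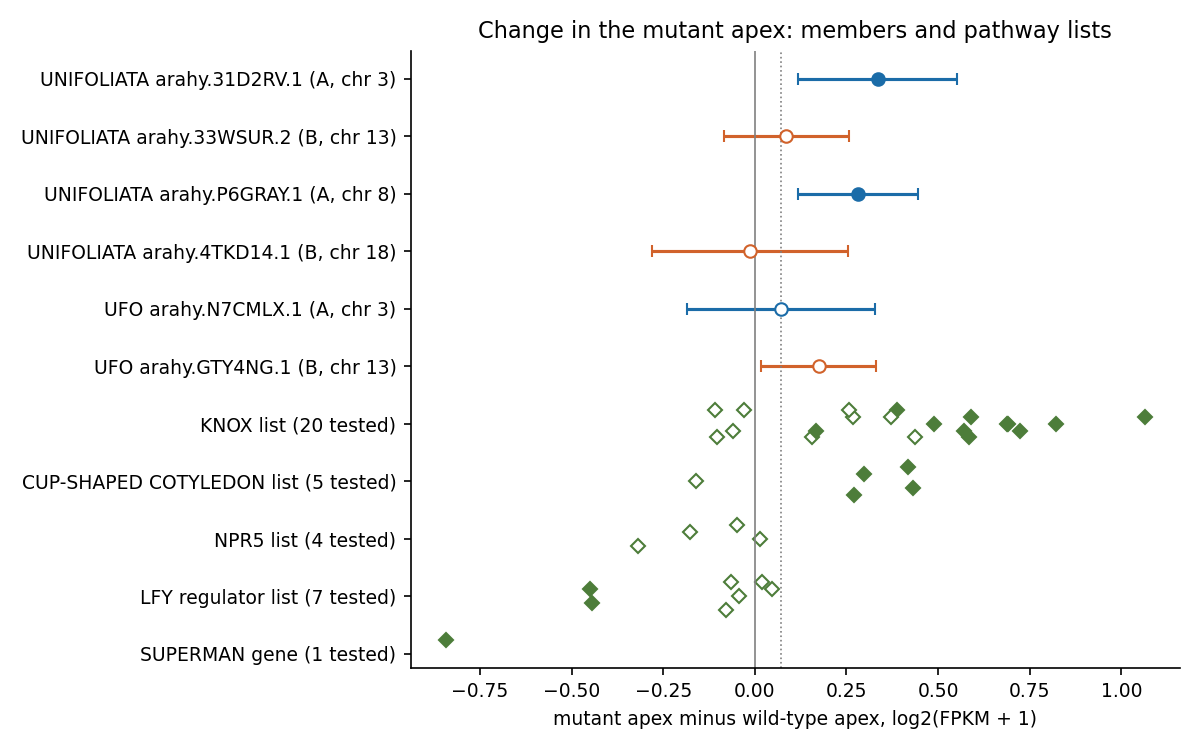
Each row gives the difference between mutant and wild-type apex in log2(FPKM + 1). Circles with 95% intervals are the 6 members (A copies blue, B copies orange), diamonds are single genes of 5 lists, filled symbols passed an adjusted p under 0.05, and the dotted line is the median of all genes, 0.07; only the UNIFOLIATA A copies are filled among the members.

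Markers of the shoot meristem also differed between the apices. The summed level of the 8 marker genes (SBH1, WUSCHEL and CLAVATA 3 products) was 47.4 to 49.9 FPKM in the wild-type apex and 74.4 to 77.3 in the mutant apex, and at most 0.61 in the other tissues. Nearly all of it came from the 4 SBH1 homeobox genes, which were all higher in the mutant, and the WUSCHEL and CLAVATA 3 products had means of at most 0.50 FPKM. Mesophyll markers (33 genes of Rubisco and the light-harvesting complex) summed to 5520 to 5864 FPKM in the wild-type and 6131 to 6347 in the mutant apex. The part of either in the changes of the UNIFOLIATA genes was not tested.

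Within each apex library the A and B copies can be compared directly. On chromosomes 3 and 13 the B copy was lower than the A copy in 6 of 6 libraries, by 0.78 on average (log2(FPKM + 0.1), SD 0.198), so the A copy was 1.72 times as high. The exact two-sided sign-flip permutation test over the 6 libraries gave p = 0.03125, the smallest it can give, and 0.0938 after adjustment over the 3 pairs. On chromosomes 8 and 18 the B copy was lower in 5 of 6 libraries, with a mean difference of -0.24 (SD 0.375, exact permutation p = 0.156, adjusted 0.234). The UFO copies were close, with B lower in 4 of 6 libraries and a mean difference of -0.06 (SD 0.301, exact permutation p = 0.625). Reads of near-identical copies can be assigned to the wrong one, and the sources used here do not give how the authors treated them.

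The mean gap between copies was wider in the mutant for both UNIFOLIATA pairs, by amounts that did not pass a test. For chromosomes 3 and 13, B minus A was -0.59, -0.48 and -0.85 in the wild-type and -0.97, -0.93 and -0.86 in the mutant libraries, with no overlap. The difference was -0.28 (exact two-sided permutation p = 0.1, the smallest that 3 against 3 allows, adjusted 0.3). For chromosomes 8 and 18 it was -0.38, from values of -0.05, -0.54 and 0.42 against -0.52, -0.48 and -0.29, which overlapped (exact permutation p = 0.4, adjusted 0.6). For UFO it was 0.14 (exact permutation p = 0.7). The B copies together made up 43.5, 41.2 and 42.7% of the UNIFOLIATA sum in the wild-type apex and 36.1, 36.6 and 38.5% in the mutant apex, without overlap.

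**Figure D3:**
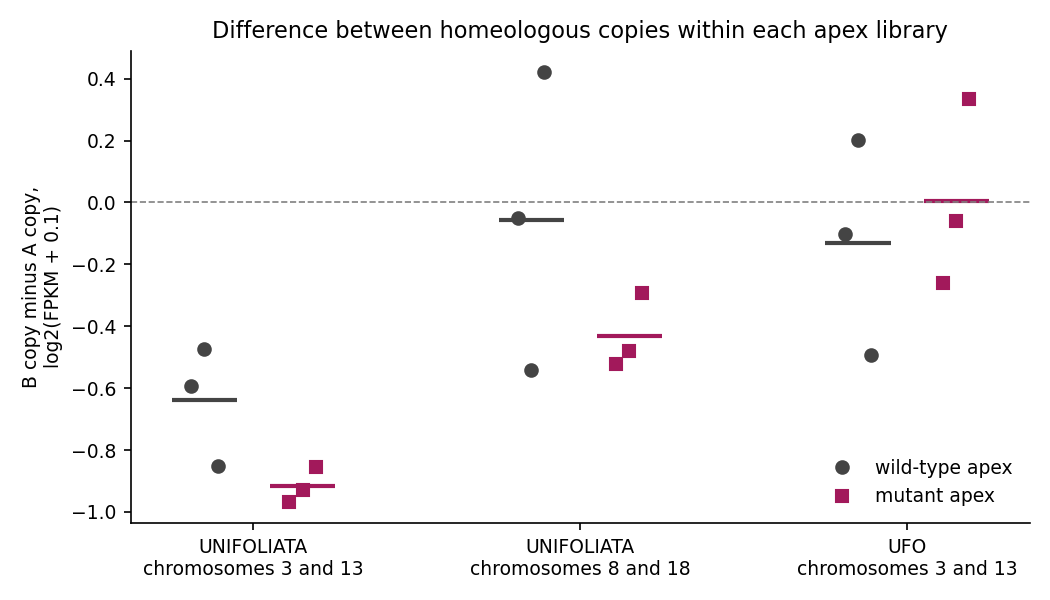
Points are the B copy minus the A copy in log2(FPKM + 0.1), 1 point per apex library, for the 3 gene pairs, with wild-type libraries as grey circles, mutant libraries as red squares and lines at the group means. The chromosome 3 and 13 pair lies below 0 in all 6 libraries, while the other pairs include libraries on either side.

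Among the genes around the members, calls ran in both directions. Of 48 neighbours, 36 were tested, and 9 were higher and 18 lower in the wild-type apex than in the leaflets. Of all genes, 35.3% were higher and 44.3% lower there. The median was -0.23 for the neighbours beside -0.09 for all genes. The BONZAI 1-like gene arahy.88B2ED.4, which lies 3.9 kb from arahy.33WSUR.2 and belongs to a family of membrane-binding copines, stood at 5.05 ± 0.155 FPKM in the wild-type apex. It stood at 12.03 and 14.47 FPKM in the terminal and lateral leaflet, a log2 difference of -1.23 for apex against leaflets (adjusted p = 3.66e-11). In the mutant apex it was higher than in the wild type, at 7.28 ± 0.615 FPKM (0.45, adjusted p = 0.000127).

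The lipid transfer gene beside UNIFOLIATA differed between the pairs. On chromosome 13, arahy.NLY2UH.1 was higher in the wild-type apex than in the leaflets (1.18 against 0.18 and 0.197 FPKM, log2 0.87, adjusted p = 2.35e-07). Its petiole level was higher still, at 1.63 FPKM (apex against petiole log2 -0.27, limma adjusted p = 0.0314). It passed the filter on low values only outside the leaflets, so its difference from them was in part fixed by the filter. On chromosome 18, arahy.M0PR6E.1 was lower in the wild-type apex than in the leaflets (2.88 against 11.7 and 9.93 FPKM, log2 -1.60, adjusted p = 8.4e-12), as was arahy.LYV1YH.1 on chromosome 8 (3.58 against 14.4 and 12.5, log2 -1.66, adjusted p = 3.08e-11). Beside the UFO gene on chromosome 13, the lysM protein gene arahy.TFU8D3.1 was higher in the apex than in the leaflets (35.6 against 8.00 FPKM in the terminal leaflet, log2 2.03, adjusted p = 7.84e-12) but stood as high in the petiole, at 38.2 FPKM. The lysM gene beside the UFO gene on chromosome 3, arahy.69AYC6.2, stood at 1.35 FPKM in the wild-type apex and 1.14 in both leaflets (log2 0.16, adjusted p = 0.46). Each lysM gene overlaps the cellulose synthase A 4 gene on the other strand, and without strand information their reads cannot be told apart. In the mutant apex, 6 of the 36 neighbours tested were higher and 1 lower, beside 23.7 and 11.9% of all genes. Under quantile normalization the neighbour counts were 4 and 4.

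Genes that act upstream of LEAFY in Arabidopsis include 2 that fell in the mutant apex. Of 12 genes in this list, 7 were tested, 0 were higher and 2 lower (median -0.06). Of all genes, 23.7% were called higher and 11.9% lower in the mutant apex, the shares to set beside this and the later list counts. Both were AUXIN RESPONSE FACTOR 5 genes, whose Arabidopsis product MONOPTEROS activates LEAFY. The first, arahy.N1Z0FN.2, fell from 15.8 ± 0.2696 to 11.3 ± 0.1997 FPKM (log2 -0.45, adjusted p = 1.8e-05), and the second, arahy.B09RYD.1, from 7.20 to 5.03 (-0.44, adjusted p = 0.000566). The genes for ATHB-51 (LMI1) and SQUAMOSA PROMOTER-BINDING-LIKE 3, also activators of LEAFY in Arabidopsis, did not pass the test.

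In Medicago truncatula the zinc finger protein PALM1 represses the UNIFOLIATA ortholog. The 1 gene found by the pattern for such proteins was the SUPERMAN gene arahy.FUQZ4V.1 on chromosome 15, which need not be a PALM1 ortholog. It was lower in the mutant apex, at 0.647 ± 0.0351 against 1.96 ± 0.152 FPKM (log2 -0.84, adjusted p = 2.17e-06). Unlike the members it was highest in the leaflets, at 9.32 and 10.6 FPKM in the terminal and lateral leaflet, and it stood at 1.03 FPKM in the petiole.

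The COCHLEATA gene of pea, of the NPR5 or BLADE-ON-PETIOLE type, is known for mutants whose stipules become like compound leaves. All 4 NPR5 genes were higher in the wild-type apex than in the leaflets (median 2.75) and also higher in the petiole than in the leaflets (4 of 4, median 0.78). Of all genes, 35.3% were higher in the apex and 30.8% in the petiole than in the leaflets. The members, near or at 0 in petiole and leaflets, could hardly show such a petiole difference. Only 2 of the NPR5 genes averaged at least 1 FPKM in the terminal and 1 in the lateral leaflet, so the others passed the filter through the apex and petiole. In the mutant apex 0 of 4 were called by limma (median -0.11), while quantile normalization made 1 lower. The 2 CENTRORADIALIS-like genes, relatives of the TFL1 antagonists of LEAFY, had means of at most 0.0833 FPKM in every group and were not tested. In the list for AS1, which keeps class I KNOX genes off in leaves, 1 of 9 tested genes was higher and 2 lower in the mutant apex (median 0.02), but most of its 11 entries were other products caught by the pattern.

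Class I KNOX homeobox genes keep meristem cells undifferentiated and act in the compound leaves of many species, while pea relies on UNIFOLIATA. Of the 20 KNOX genes tested, of 21, 2 of which are class II knotted-1-like 13 genes, 11 were higher and 0 lower in the mutant apex (median 0.41 beside 0.07 for all genes). With a pseudocount of 0.1 this became 6 and 0, and under quantile normalization 10 and 1. The largest rise was that of arahy.0VJ2KM.1, a knotted-1-like gene, to 54.3 ± 3.37 from 25.4 ± 1.05 FPKM (log2 1.06). The 4 SBH1 genes counted above as meristem markers are part of this list. Of the 21 KNOX genes, 19 averaged at least 1 FPKM in the wild-type apex and 2, the class II genes, did so in each leaflet group. Most of the list thus passed the filter through tissues other than the leaflets, and a count of genes higher in the apex than in the leaflets describes that filter.

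CUP-SHAPED COTYLEDON genes mark organ boundaries and the gaps between leaflets. Of 11, 5 were tested, all of which passed the filter on low values through the apex alone, so their higher level there than in the leaflets was fixed by the filter. In the mutant apex 4 were higher than in the wild type (median 0.30). The latter count became 0 with a pseudocount of 0.1, and under quantile normalization 3 were higher and 1 lower.

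Partners of UFO in the SCF complex, SKP1-like and cullin-1 genes, were expressed in all tissues, with sums of 314 to 376 FPKM in every library. Of 33 tested, 7 were higher and 1 lower in the mutant apex (median 0.11), beside 23.7 and 11.9% of all genes. Against the leaflets, 10 were higher and 16 lower in the wild-type apex, beside 35.3 and 44.3% of all genes. The cullin-1-like gene arahy.UI60BE.1 rose from 1.32 ± 0.304 to 2.84 ± 0.442 FPKM in the mutant (log2 0.73, adjusted p = 0.000134). The more abundant cullin-1 gene arahy.18U4K7.1 fell from 31.4 to 26.7 FPKM (log2 -0.22, adjusted p = 0.000486).

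Floral identity genes are the best known targets of LEAFY and UFO. Of 13 CAULIFLOWER genes, of the APETALA 1 group of direct LEAFY targets, 4 were tested, and 1 was higher and 0 lower in the mutant apex (median -0.22). That gene, arahy.5B6ZAR.1, rose from 1.44 ± 0.295 to 4.85 ± 0.356 FPKM (log2 1.26, adjusted p = 1.91e-07). While 11 of the 13 had a lower mean in the mutant than in the wild type, most of these did not pass the filter on low values. The lower means of the genes that did not pass were therefore not tested, and the tested genes with a lower mean were not called. Of 13 floral marker genes tested, 2 were higher and 4 lower in the mutant apex (median -0.18 beside 0.07 for all genes). The DEFICIENS gene arahy.D4F11K.2 fell from 16.2 ± 1.12 to 8.78 ± 0.770 FPKM (-0.82, adjusted p = 0.000474), whereas the DEFICIENS gene arahy.MX0VEQ.1 rose from 5.89 to 8.18 FPKM (0.42, adjusted p = 0.00129). The 26 floral marker genes (AGAMOUS, DEFICIENS, PMADS and SEPALLATA products) summed to 65.8 to 71.5 FPKM in the wild-type and 53.0 to 55.5 in the mutant apex, against 34.8 to 42.8 elsewhere. The part of floral tissue in the members' levels was not tested.

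The genes whose pattern was most like that of the members were sought by Pearson's r of log2(FPKM + 1) over the 15 libraries, among 19814 genes with a named product that averaged 5 FPKM or more in some group. Uncharacterized and similar products were left out, and of each product name only the best match was listed. For the UNIFOLIATA sum the listed genes were the SBH1 gene arahy.FN3HAQ.1 (r = 0.9989), a premnaspirodiene oxygenase-like gene, arahy.EHKI1X.1 (0.9987), the LET6 knotted-1-like gene arahy.EUX0L6.1 (0.9987), a thaumatin-like gene, arahy.124K07.1 (0.9985) and an endochitinase-like gene, arahy.SBZM2C.1 (0.9985). For the UFO sum, arahy.EHKI1X.1 (0.9988) led, followed by a SCARECROW-like gene, arahy.U9F63D.1 (0.9983), and arahy.FN3HAQ.1 (0.9981). These values are descriptions and rest on the contrast of 6 apex with 9 other libraries. The SBH1 gene stood at 10.5 ± 0.839 FPKM in the wild-type and 14.1 ± 0.557 in the mutant apex, and at no more than 0.07 on average elsewhere.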

How the data were processed

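The authors deposited FPKM values for 15 libraries, per the file headers, together with their own log2 ratios, p-values and q-values between groups. The sources used here name neither the aligner, the counting method nor the test. Each of the 15 FPKM columns appears again with identical values, and 1 of each was read. The submitters' processing notes name TAIR 10, an Arabidopsis build, while identifiers are of the Tifrunner genome. Leaflet columns were matched to libraries through the tissue labels.

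Genes that reached 1 FPKM in 3 libraries or more (39031, all 6 members included) were fitted as log2(FPKM + 1) with a mean per group in limma 3.58.1 (R 4.3.3, trend and robust), with Benjamini-Hochberg adjustment, after the fit was tested on simulated data. Copies were compared by exact permutation tests (scipy 1.17.1, Python 3.11.15). P-values set differences against the spread between libraries, which in limma was pooled over groups and moderated over genes. The spread between plants is not known. Fragment equivalents cover counting error only, and 65.1 to 70.2% of low values lay within 0.2 of a whole fragment at the estimated depth. Named genes are the members, the 5 best matches in pattern per product class, pathway lists and markers, found by product name; the counts of the floral identity list are not reported here. Members and lists were chosen with earlier results of these data known; neighbours and some list examples were chosen after their values were seen. Alternatives covered pseudocount, filter, scaling, groups fitted, moderation, replicate block and leaving out each replicate.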

Additional observations from a re-analysis of the deposited data

How the results depend on the processing

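The number of members called in the mutant apex, 2 in the fit over all libraries, was 0 with a pseudocount of 0.1, 1 under quantile normalization, 1 when only the groups compared were fitted, and 1 to 2 with each replicate left out in turn. Over 13 alternatives the adjusted p of arahy.31D2RV.1 ran from 0.00063 to 0.252 (called in 6) and that of arahy.P6GRAY.1 from 0.00129 to 0.261 (called in 11). Without trend and robust moderation the UFO copy arahy.GTY4NG.1 was also called (adjusted p = 0.0107). Between petiole and leaflets 2 members were called with a pseudocount of 0.1 and 0 otherwise. Calls of the apex against leaflets and petiole, and the absence of calls between leaflets, could hardly change, because the members are near 0 outside the apex. Some differences that were not called turned sign when a replicate was left out. For the mutant against the wild-type apex, arahy.N7CMLX.1 ran from -0.072 to 0.212 and arahy.4TKD14.1 from -0.188 to 0.105. For the UFO copies, B minus A ran from -0.143 to 0.023 and its change in the mutant from -0.044 to 0.302. A smaller pseudocount gives more weight to values near 0; the cause of the other changes was not tested.

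Quantile normalization turned the split of all genes called in the mutant apex from 9243 higher and 4633 lower to 6889 and 6112, and that between petiole and leaflets from 12004 and 17196 to 15111 and 13656, where it moved the median of all genes from -0.11 to 0.03. Replicate numbers did not pair the libraries: deviations of same-numbered libraries correlated at -0.055 to 0.05 over 30 pairs. With the replicate number as a block, 2 members were again called in the mutant apex, arahy.31D2RV.1 at an adjusted p of 0.0242 and arahy.P6GRAY.1 at 0.0166, and no other call of a member changed. Members at 0 are below about 3 fragments, which limits every comparison among petiole and leaflets.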
